A study of Mus musculus with 4 samples.

Results

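Endothelial cells of 4T1 mouse mammary tumours were examined as 262 single cells among the 32133 cells that passed quality filtering (at least 300 genes and at most 15% mitochondrial transcripts), out of 33064 barcodes in all. A cell was included if it held at least 1 unique molecular identifier (UMI, 1 captured RNA molecule) of Pecam1 and at least 1 of Cdh5, which encode the junctional proteins CD31 and VE-cadherin. It also had to hold no UMI of Ptprc, which encodes the leucocyte antigen CD45, less than 0.2% of UMIs from the keratins Krt8 and Krt18, and less than 1% from the collagens Col1a1, Col1a2 and Col3a1. Because the cells were chosen on their own transcripts, their differences from other cells are given as descriptions, with no test.

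The 4T1 line, from a BALB/c mammary carcinoma, was implanted as 1000000 cells in 25 µl of PBS into the right flank of female BALB/c mice aged 6 to 8 weeks. Tail vein injections followed on day 7, tumours were lit for 5 min at 980 nm (near infrared, at 1.0 W cm-2) on each of days 8, 9 and 10, and tumours were taken on day 13. By the labels, 2 samples received PBS and 1 received TIOs, an oncolytic nanosystem modelled on cytotoxic T cells that drives lipid peroxidation under this light. The sample titled PBS names TIOs in its treatment text and was assigned to no group. All mice carried 4T1 tumours, and all of the groups were lit.

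The deposited matrix holds 4 libraries, told apart by the number at the end of each barcode, and no label ties a number to a sample. Treatments were therefore not compared. The libraries are given below as library 1 to library 4, samples of unknown treatment, and 95% intervals (exact binomial for shares, exact Poisson for levels) cover counting error only. Tumour suspensions were enriched for CD45+ cells by sorting before capture, for an antigen that endothelial cells lack, so this gate can set every share given below. Among kept cells, 95 barcode sequences occurred in at least 2 libraries; 4 of the endothelial cells had such a barcode, and no barcode sequence was shared by a pair of endothelial cells.

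Endothelium is the single layer of cells that lines blood and lymphatic vessels. Growth of new vessels is driven by vascular endothelial growth factors acting on Kdr, Flt1 and Flt4, with angiopoietins, Tie receptors and Notch ligands shaping the sprout, while arteries, capillaries, veins and lymphatics each keep a characteristic set of transcripts. In tumours the endothelium also helps to decide which leucocytes enter, through selectins, integrin ligands, chemokines and, under interferon, antigen presentation genes.

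Library 2 held most of the endothelial cells. Libraries 1 to 4 contributed 47, 170, 35 and 10 of them. As a share of kept cells these were 0.599% (95% interval 0.440–0.796%) of 7847 cells in library 1, 1.97% (1.69–2.29%) of 8614 in library 2, 0.516% (0.360–0.717%) of 6783 in library 3 and 0.112% (0.0540–0.207%) of 8889 in library 4. The interval of library 2 lay above the other intervals, that of library 4 lay below them, and libraries 1 and 3 overlapped. The same order of the highest and lowest libraries was seen when the denominator was the kept cells without Ptprc, with 0.965%, 4.13%, 1.16% and 0.498%. Over all libraries the share was 0.815% (0.720–0.920%), and library 2 gave 64.9% of the cells and 74.4% of their 5323207 UMIs, so that pooled levels mostly describe library 2.

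**Figure D1:**
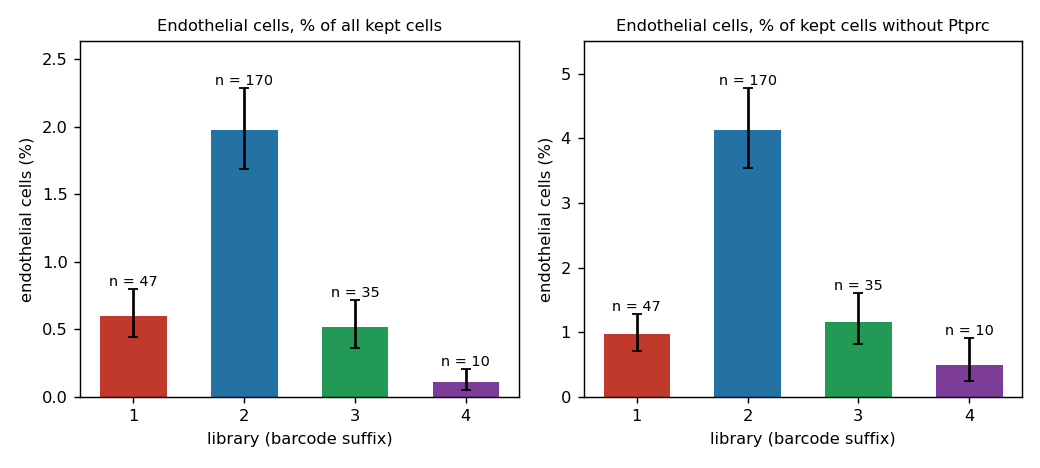
Endothelial cells in each of the 4 libraries as a percentage of all kept cells (left) and of kept cells without Ptprc (right). Bars are shares, lines exact binomial 95% intervals of counting error and n the number of endothelial cells. Library 2 is highest and library 4 lowest in both panels.

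The depth of the endothelial cells differed between libraries, with medians of 6167, 13198, 15920 and 14534.5 UMIs in libraries 1 to 4, against 11744.5, 2569, 2679.5 and 7181 in the other kept cells. The median endothelial cell held 12181.5 UMIs (range 662–168234) and 3703 genes. Endothelial cells were thus shallower than their neighbours in library 1 and deeper in the other libraries, and shares of cells with a UMI were therefore also computed after thinning.

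At the edge of the rule, 11 members held 1 UMI each of Pecam1 and Cdh5, and Kdr, the main receptor for VEGF-A, was detected in 18.2% of them (2 cells), against 95.2% of the 168 members with at least 5 UMIs of each. These sets also differed in depth, with medians of 4713 and 18742.5 UMIs, and the part of depth in this difference was not tested. Just outside, 37 cells with 1 Ptprc UMI met all other limits; their medians were 14 Pecam1 and 7 Cdh5 UMIs, and 73.0% held Kdr. The 71 cells with at least 2 Ptprc UMIs had medians of 1 and 1, and 26.8% held Kdr. The collagen limit was passed by 25 cells with Pecam1 and Cdh5, 16 of which failed no other limit, at 1.11% to 11.7% of their UMIs against at most 0.526% in a member, and keratin kept out 1 cell, at 0.214% against at most 0.187%. A single Ptprc UMI thus separated cells that were otherwise alike in these 3 genes, whereas cells past the collagen limit carried little Pecam1 or Cdh5.

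The label was checked on 29 pan-endothelial genes that the rule did not use. Members detected a median of 23 of them (range 0–29), and 237 of the 262 (90.5%) detected at least 10. The medians were 6 in pericytes and smooth muscle cells, 5 in fibroblasts, 2 in tumour cells and 0 in neutrophils, each set chosen by its own markers. Fewer than 5 were detected in 7 members, 6 of them in library 2 and 1 in library 3, and in these the label rests on Pecam1 and Cdh5 alone. Kdr was detected in 217 members (82.8%). In library 1 Kdr was in 76.6% of members (median 6167 UMIs) and in 1.10% of neutrophils (median 2355 UMIs), which should lack it, and after thinning every cell to 1000 UMIs in 38.3% and 0.571%. In library 2 the shares of members and neutrophils were 85.3% and 1.48%, and 33.5% and 0.284% after thinning. Library 3 gave 82.9% and 0.966%, and library 4, where other cells held the most Kdr, gave 70% of 10 members against 3.45% of neutrophils and 13.7% of leucocytes (30% against 0.488% and 2.64% after thinning). In each library detection in the endothelial cells was above that in neutrophils and leucocytes.

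Of the 29 pan-endothelial genes, 28 reached 50 CPM (a gene's share of the summed transcripts of a set of cells, scaled to 1000000), and all 28 were at least 4-fold higher than in all other kept cells with 10 CPM added to both levels. Over all genes at 50 CPM or more, 225 of 3368 were at least 4-fold higher (6.68%), and 268 of 3129 genes at this level in the other cells were at least 4-fold lower (8.57%). The median log2 fold of the list was 3.73, against 0.14 over 3943 genes at 50 CPM or more on either side. The list was chosen because it is endothelial, and it describes the cells rather than testing them.

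The genes that stood apart in every well-filled library were ranked by the fold in the lowest of libraries 1, 2 and 3, which each held over 20 members. The leading 25 comprised Pecam1 and Cdh5, which the rule used, 12 genes of the pan-endothelial list and 11 in neither. Egfl7, a secreted regulator of vessel assembly that hosts a microRNA, was at 1621, 879, 1142 and 1195 CPM in libraries 1 to 4 and at 987 CPM (961–1014) over all, against 11.1 CPM in the other cells, with at least 31.1-fold in each of the 3 libraries. Plvap, the diaphragm protein of fenestrae and caveolae, was at 852.5 CPM (828–878) against 8.57 CPM. Emcn, a sialomucin of capillaries and veins, was at 600.0, 466, 599 and 767 CPM in libraries 1 to 4 against 3.34 CPM in the other cells. The ranking asked for a high fold in each of libraries 1, 2 and 3, so high levels there were set by the choice and only describe it. Library 4 had no part in the ranking by fold. In its 10 members Egfl7, Plvap and Emcn were at 1195, 1090 and 767 CPM.

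Other leading genes of known endothelial role were Ptprb, the phosphatase that restrains Tie2, at 353.5 CPM against 1.68, the adhesion molecule Esam at 529 against 4.44, the tight junction claudin Cldn5 at 315 against 1.68, and the apelin receptor Aplnr at 260.4 against 1.64. Of the 11 genes outside both lists, Ctla2a, which encodes a cathepsin inhibitor-like protein, was at 2347 CPM (2306–2389) against 68.7 CPM and was detected in 95% of members. Fabp4, a cytosolic fatty acid carrier found in capillary endothelium and fat cells, was at 5540 CPM (5477–5603) against 87.8 CPM. Fabp4 was at 4426, 6504, 1821 and 2597 CPM in libraries 1 to 4 by summed counts. The median cell was at 2488, 5763, 699.8 and 3850.4 CPM, so that library 2 was highest and library 3 lowest by both measures, and libraries 1 and 4 changed places.

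**Figure D2:**
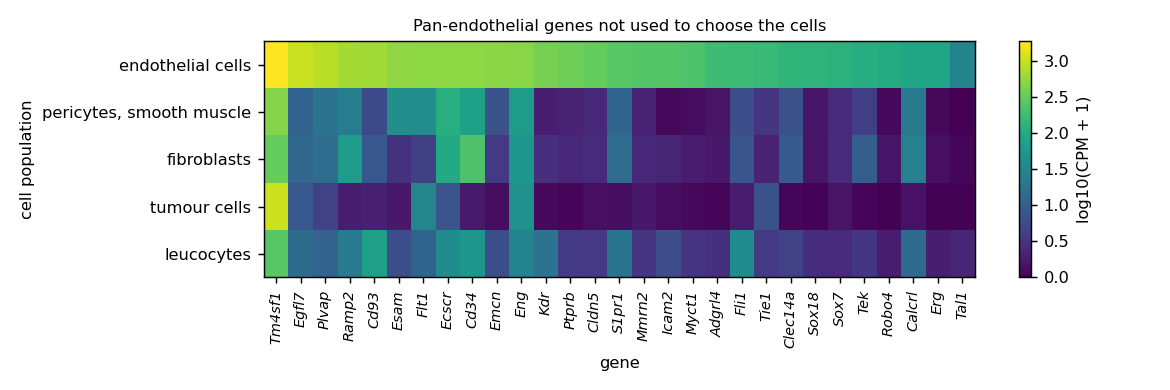
Summed levels of the 29 pan-endothelial genes (columns, ordered by their level in endothelial cells) in endothelial cells and in pericytes and smooth muscle cells, fibroblasts, tumour cells and leucocytes (rows), as colour on a log10(CPM + 1) scale. The top row is brightest for every gene, with Tm4sf1 and Cd34 also seen in other rows.

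Promoter sequences from RefSeq (build GRCm38.p6, 250 bases before to 50 after a start site) were searched on both strands for CAGGAAG, a sequence that ETS factors such as Erg and Fli1 can bind. It was held by 13.3% of the 32851 windows and by 14.8% of 27025 genes. Of the 29 pan-endothelial genes, 17 had a window, and 6 of those (35.3%; Calcrl, Cd34, Egfl7, Emcn, Erg and Robo4) held it. Stretches of 100 bases are shown for Egfl7, a leading gene (chr2:26583760-26583859, plus strand), and for Erg, which encodes an endothelial ETS factor (chr16:95459354-95459453, minus strand), 5′ to 3′ in the direction of the gene and with the match in capitals. The Egfl7 window belongs to a start site inside the gene (chr2:26580014-26593120, plus strand in GENCODE vM21) and not to its outermost one. The match begins at position -81 from this Egfl7 start site and at -40 from that of Erg, where it is read on the opposite strand.
Egfl7: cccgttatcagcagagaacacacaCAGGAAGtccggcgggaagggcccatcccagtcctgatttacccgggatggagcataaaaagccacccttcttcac
Erg: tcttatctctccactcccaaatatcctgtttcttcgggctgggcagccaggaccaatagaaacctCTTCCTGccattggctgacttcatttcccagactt
A match describes the letters only, and binding was not measured.

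The VEGF receptors Kdr, Flt1 and Flt4 were at least 4-fold higher in the endothelial cells, and no VEGF ligand was. Of 10 genes of ligands and receptors, 6 reached 50 CPM, 3 were at least 4-fold higher and none was at least 4-fold lower. Of all genes tested, 6.68% were higher and 8.57% lower by this measure. Kdr was at 421, 406, 332 and 413 CPM in libraries 1 to 4 and at 397 CPM (380–414) over all, against 9.65 CPM in the other cells, a log2 fold of 4.37. Flt1, the decoy-like VEGF receptor, was at 734, 516.5, 375 and 529 CPM against 13.6 CPM. Flt4, the receptor for VEGF-C, was at 83.8 CPM against 0.910 CPM and was highest in library 3, at 243 CPM. The co-receptors Nrp1 and Nrp2 were at 205 and 187.5 CPM, against 61.3 and 74.9 CPM. The ligand Vegfa was at 25.9 CPM against 107 CPM in the other cells, Vegfd at 2.07 against 35.5 CPM, and Pgf, a ligand of Flt1, at 76.8 against 37.5 CPM.

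Of 5 angiopoietin and Tie genes, 4 reached 50 CPM and all 4 were at least 4-fold higher, and of 11 Notch genes 5 reached it and 4 were. The share over all genes tested was 6.68%. The Tie receptors Tek and Tie1 were at 108 and 165 CPM, against 2.81 and 2.86 CPM. Angpt2, the angiopoietin that endothelium itself makes and that destabilises vessels, was at 176.5, 59.8, 205.5 and 68.8 CPM in libraries 1 to 4 against 4.17 CPM, while Angpt1, its counterpart from mural cells, was at 1.5 against 10.2 CPM. Angpt2 in libraries 1 and 3 was above libraries 2 and 4. The Notch ligand Dll4, which marks sprouting and arterial endothelium, was at 104 CPM against 1.21 CPM, and the receptor Notch4 at 84.3 against 1.70 CPM.

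The basement membrane list had all 13 genes at 50 CPM, of which 4 were at least 4-fold higher (Col4a1, Col4a2, Col15a1 and Col18a1). Over all genes tested 6.68% were, the share to set beside this count and the junction and shear counts below. Col4a1, a chain of type IV collagen, was at 2850, 2394, 942 and 1645 CPM in libraries 1 to 4 against 230.2 CPM in the other cells of all libraries. By library the other cells were at 58.9, 465, 325 and 166 CPM, so that in library 3 Col4a1 was less than 4-fold higher. Fibroblasts of library 3 were at 851 CPM. Against pericytes and smooth muscle cells none of the 13 genes was at least 4-fold higher, and against fibroblasts 2 were, with summed levels of 10181 CPM in endothelial cells, 9108 in pericytes and smooth muscle cells and 13376 in fibroblasts. Basement membrane transcripts were thus shared with the other stromal cells. Col4a1 was lowest in library 3, and its 4 counting intervals did not overlap. Of 13 junction genes, 10 reached 50 CPM and 6 were 4-fold higher, while Ocln, a tight junction gene of barrier endothelium and epithelium, was at 0.188 CPM. Of 12 genes of shear response, vessel tone and coagulation, 9 reached 50 CPM and 4 were 4-fold higher: Nos3, the endothelial nitric oxide synthase, at 107 CPM against 2.06, Edn1, the vasoconstrictor endothelin, at 89.6 against 2.49, and Ece1 and Procr. F3, the trigger of coagulation, was at 2.63 CPM.

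Of 8 genes of fatty acid handling, 6 reached 50 CPM and 4 were at least 4-fold higher (beside 6.68% of all genes tested). Gpihbp1, which carries lipoprotein lipase across capillary endothelium, was at 1504 CPM (1389–1625) in library 1, 483 (462–505) in library 2, 69.4 (51.8–91.0) in library 3 and 116 (72.9–176) in library 4, against 2.1 CPM in the other cells. In library 4, 18 of its 22 UMIs were in 1 cell, without which it was at 23.4 CPM, and in library 3, 19 of 52 were, without which it was at 45.5 CPM. Library 1 was above library 2 for Gpihbp1, and both were above libraries 3 and 4. Cd36, a fatty acid translocase, was at 181, 441.5, 85.4 and 254 CPM in the same order, with library 2 highest. Lpl itself was at 63.5 CPM, below the 268 CPM of the other cells.

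Leucocyte adhesion genes were high and chemokine genes were mostly not. Of 13 adhesion genes, 9 reached 50 CPM and 7 were at least 4-fold higher. P-selectin, encoded by Selp, was at 87.1, 496, 1109 and 762 CPM in libraries 1 to 4 against 5.11 CPM in the other cells, and E-selectin, encoded by Sele, at 66.7 CPM over all against 0.718 CPM. Selp was lowest in library 1 and highest in library 3, and in library 4, where 1 cell held 93 of 144 UMIs, it was at 459 CPM without that cell. Of 13 genes of chemokines and chemokine scavengers, 1 (the scavenger Ackr1) was at least 4-fold higher and 4 of 9 tested were at least 4-fold lower (beside 6.68% and 8.57% of all genes tested), among them Cxcl2, a chemokine for neutrophils, at 487 CPM against 4909 CPM. Cxcl12, which binds Cxcr4, was close to the other cells, at 275 against 309 CPM.

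Genes of lipid peroxidation and iron were examined because the agent acts on lipids, although no library could be assigned to it. Of 11 genes, 5 reached 50 CPM, none was 4-fold higher and 1 of 7 tested, the cystine carrier Slc7a11, was at least 4-fold lower (beside 8.57% of all genes tested), at 10.9 CPM against 86.2 CPM. Gpx4, which reduces lipid peroxides, was at 318, 319, 227 and 227 CPM in libraries 1 to 4 against 351 CPM in the other cells. All 4 values of Gpx4 were below this level of the other cells, which is pooled over all libraries, by less than the 4-fold asked. The ferritin heavy chain Fth1 was at 4393 against 12955 CPM, and Hmox1, the haem oxygenase, was highest in library 3, at 272 CPM against 68.2, 75.8 and 74.1 in libraries 1, 2 and 4. In the remaining lists, of 11 genes of TGF-beta and BMP signalling 7 reached 50 CPM and 1 was at least 4-fold higher, beside 6.68% of all genes tested (Eng, a co-receptor, at 494 CPM against 36.7), and of 8 checkpoint and death ligands only Lgals9 reached 50 CPM, with Fasl and Cd80 at 0 UMIs, which allows up to 0.564 CPM.

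Vessel types were described by the cells that held a UMI of 1 defining gene. Prox1, the transcription factor that sets lymphatic identity, was in 25 members, of which 12 were in library 2 and 13 in library 3, at 7.06% and 37.1% of members. It was in 0 of 47 members of library 1, which allows up to 6.38% of cells with a UMI, and in 0 of 10 of library 4, which allows up to 30.0%. These limits are for cells with a UMI and not for lymphatic cells, since library 1 had the shallowest members (median 6167 UMIs). Lyve1, the hyaluronan receptor of lymphatic vessels, was in 60% of the Prox1 cells and 6.33% of the others, at 1255 and 17.0 CPM. Mmrn1 was in 56.0% against 2.11%, Reln in 36.0% against 1.27%, and Ccl21a, the chemokine that guides dendritic cells and T cells into lymphatics, in 32.0% against 1.27%. Of the Prox1 cells, 16 held at least 3 of the 6 other lymphatic genes, as did 9 of the 237 cells without Prox1. In library 3 Selp was in 9 and Ackr1 in 4 of the 13 Prox1 cells, where all 35 members of that library, these 13 included, held them in 20 and 11 cells. In library 2 they were in 3 and 2 of 12. Reln was in 2 of 13 Prox1 cells of library 3 and 7 of 12 of library 2. Flt4 was at 455 CPM in the Prox1 cells and 40.9 CPM in the others, whereas Flt1 was in 36.0% against 86.5%. These cells were deeper (median 15576 against 11255 UMIs), and after thinning to 5000 UMIs Lyve1 was in 50% of 16 cells against 5.88% of 187.

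Ackr1, an atypical chemokine receptor of venules, was in 52 members, 3, 35, 11 and 3 by library. Selp was in 96.2% of these and 27.6% of the others, and after thinning to 5000 UMIs in 96.8% and 20.9%. Vwf, the platelet-binding factor of veins, was in 86.5% against 18.1%, and Vcam1, the ligand for lymphocyte integrins, in 73.1% against 27.6%. The venous adhesion genes thus met in the same cells. Icam1 was at 1021 CPM in Ackr1 cells and 318 CPM in the others, Lrg1 at 1084 against 285.5 CPM, and Gpihbp1 at 131 against 612 CPM. Within library 2 alone, Selp was in 94.3% of Ackr1 cells and 28.1% of the others. Glycam1, a mucin of high endothelial venules, was in 11 members, and the list of high endothelial venule genes had only Ccl21a at 50 CPM, with Fut7 at 0 UMIs.

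Gpihbp1 was in 176 members, 37, 124, 12 and 3 by library. It is a gene of the capillary list, whose other genes differed in how they went with it. These cells were deeper, with medians of 13306 against 9607 UMIs. Rgcc was in 72.7% of these against 16.3% of the others, Cd300lg in 46.6% against 9.30%, and Cd36 in 80.7% against 48.8%. After thinning to 5000 UMIs these were 58.2% against 14.8%, 31.1% against 6.17% and 73.0% against 34.6%. Fabp4 was in 90.9% against 87.2% of cells, at 6640 against 2249 CPM, whereas Aqp1, a water channel, was at 801 against 709 CPM and Car4, a carbonic anhydrase, at 97.5 against 96.0 CPM. By share of cells Aqp1 was in 81.25% against 65.1%, and Car4 in 40.3% against 26.7%. After thinning these were 72.95% against 59.3% and 30.3% against 25.9%. Rgcc, Cd300lg and Cd36 thus went with Gpihbp1, and by share Aqp1 and Car4 did too. After thinning the differences of Aqp1 and Car4 were smaller than those of Rgcc, Cd300lg and Cd36. Car4 and Aqp1 were also higher in the cells with Ackr1, at 190.5 against 66.6 CPM and 1175 against 648 CPM. The mural gene Rgs5 also went with Gpihbp1, in 29.0% against 5.81% of cells and at 521 against 9.75 CPM, and its part in these differences was not tested. Vwf went the other way, in 23.3% against 48.8%. Cells with Gpihbp1 were 78.7% and 72.9% of members in libraries 1 and 2, and 34.3% in library 3. Gja4, an arterial connexin, was in 51 members, and among these Sema3g (49.0% against 9.01%), Hey1 (52.9% against 11.8%), Gja5 (29.4% against 1.42%) and the ephrin Efnb2 (80.4% against 43.6%) were more often detected, while Ackr1 was in 5.88% against 23.2%. After thinning, Sema3g was in 44.7% of 38 cells against 3.64% of 165. Rgs5 moved with Gja4 too, in 45.1% against 15.6% of cells and at 1142.5 against 93.3 CPM, and its part in these differences was not tested.

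Tip cells lead a vessel sprout. Apln, the apelin ligand of tip cells, was in 87 members, and Esm1, a proteoglycan of tip cells, was in 29.9% of these against 5.14% of the others. The Apln cells were much deeper, with medians of 26658 against 7838 UMIs, and after thinning Esm1 was in 20.8% against 4.67%. Mki67, a proliferation marker, was in 83 members. At least 6 of 12 cell cycle genes were found in 70 members (26.7%), which were 14.9% (6.20–28.3%) of members in library 1, 28.8% (22.2–36.3%) in library 2, 28.6% (14.6–46.3%) in library 3 and 40.0% (12.2–73.8%) in library 4. These intervals overlapped. Cells with at least 6 cell cycle genes had medians of 6366, 34784, 29772 and 27188.5 UMIs in libraries 1 to 4. The medians of all members were 6167, 13198, 15920 and 14534.5 UMIs. Such cells were thus much deeper in libraries 2 to 4 and little deeper in library 1. No order of the libraries is read from these shares.

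**Figure D3:**
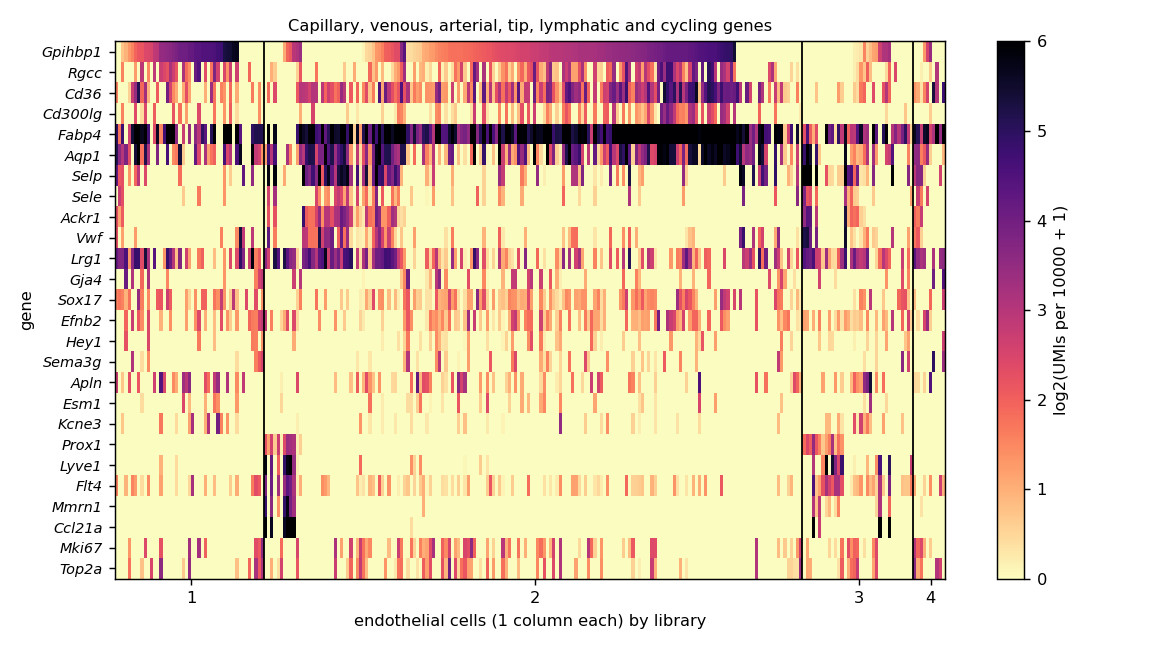
Vessel-type and cycling genes (rows) in each of the 262 endothelial cells (columns, libraries 1 to 4 from left to right between black lines), as colour on a scale of log2(UMIs per 10000 + 1). Within a library, cells with Prox1 come first, then cells with Ackr1, then cells with Gpihbp1. Prox1 appears in libraries 2 and 3, and Gpihbp1 spans most of libraries 1 and 2.

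The endothelial cells of library 1 had the highest levels of interferon response and antigen presentation genes. Over all genes tested, 110 of 3225 (3.41%) were at least 2-fold higher in the endothelial cells of library 1 than in those of both library 2 and library 3. Of the interferon response list 15 of 21 tested genes were, and of the MHC class I list 10 of 11. In all other kept cells, 197 of 2834 genes (6.95%) were at least 2-fold higher in library 1 than in libraries 2 and 3, and so were 9 of 18 interferon genes and 8 of 11 class I genes, so that library 1 was high in these genes outside the endothelium too. The class I genes summed to 12085, 3076, 4355 and 4099 CPM in the endothelial cells of libraries 1 to 4, and to 9909, 3446, 3319 and 5099.9 CPM in the other kept cells. All 24 interferon genes and all 12 class I genes were highest in library 1 among the endothelial cells of libraries 1, 2 and 3. These libraries were chosen by size, and library 4 held 10 members.

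Cxcl9, an interferon-induced chemokine that attracts T cells through Cxcr3, was at 1840 CPM (1713–1974) in library 1, 73.2 (65.0–82.2) in library 2, 2.67 (0.323–9.64) in library 3 and 31.7 (11.6–69.1) in library 4. It was found in 32 of the 47 members of library 1, with 261 of its 782 UMIs in 1 cell, and without that cell it was at 1313 CPM. In library 1 Cxcl9 was in 68.1% of members (52.9–80.9%) and 17.1% of neutrophils, and after thinning to 1000 UMIs in 34.0% against 2.86% of neutrophils and 2.42% of T cells. Thinned shares were 13.3% in the fibroblasts and 10.2% in the leucocytes of library 1, also below that of its members. The part of free RNA in the Cxcl9 counts was not tested. Ubd, a ubiquitin-like protein induced by interferon-gamma and tumour necrosis factor, was at 1127, 7.83, 0 and 5.29 CPM, in 20 of 47 members of library 1 and 0 of 35 of library 3, which allows up to 8.57% of cells with a UMI. In the other kept cells Ubd was at 6.77, 0.195, 0.482 and 0.0625 CPM in libraries 1 to 4, and Cxcl9 at 135, 18.1, 5.69 and 11.3 CPM. Both genes were therefore highest in library 1 outside the endothelium as well, at lower levels. Ubd and Cxcl9 ranked 1 and 3 of the 12 genes that differed most between libraries.

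Iigp1, an interferon-gamma induced GTPase, was at 1466, 340, 181 and 238 CPM in libraries 1 to 4. Gbp4, a guanylate-binding protein, was at 727, 72.5, 92.1 and 79.3 CPM, where 49 of the 69 UMIs of library 3 were in 1 cell, without which it was at 27.2 CPM there. Igtp, another GTPase of this family, was at 235, 15.4, 34.7 and 15.9 CPM. The class I heavy chain gene H2-K1 was at 3280 CPM in library 1 and 706, 1007 and 926 CPM in the others, and the transporter gene Tap1 at 247, 40.7, 64.0 and 47.6 CPM. Library 1 was highest for all of these genes in the endothelial cells. It was also highest in the other kept cells, with Iigp1 at 133, 30.1, 19.8 and 32.0 CPM, Gbp4 at 101, 4.92, 12.9 and 13.6 CPM and H2-K1 at 2422, 724, 767 and 949 CPM in libraries 1 to 4.

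Summed over the interferon list, the median member of library 1 held 7619 CPM (range 1165–47568), against medians of 2595 in library 2, 2387 in library 3 and 4639 in library 4. The ranges of the cells overlapped. In all other kept cells the summed levels were 4908, 3380, 3806 and 6754 CPM in libraries 1 to 4, against 12184, 2550, 2991 and 4750 CPM in the endothelial cells. By this sum library 4 was highest in the other cells and library 1 came next, whereas library 1 was highest in the endothelial cells. Fibroblasts were at 4504, 4086, 3290 and 6009 CPM, and pericytes and smooth muscle cells at 6647, 2387, 4551 and 5106 CPM.

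The class II genes were at 2998, 94.5, 120.1 and 175 CPM summed over the list in libraries 1 to 4. In library 1, 6 of 6 tested genes were at least 2-fold higher (beside 3.41% of all genes tested). The other kept cells had 9910, 2087, 1685 and 2468 CPM, with 6 of 6 as well (beside 6.95%). Cd74, the class II invariant chain, was at 1645 CPM in the endothelial cells of library 1 and at 1591 CPM in its T cells. It was in 97.9% of these members and 92.8% of neutrophils, and after thinning in 57.4% against 64.6%. H2-Ab1, a class II beta chain, was in 34.0% of members against 26.9% of neutrophils and 24.5% of T cells after thinning. Thinned shares for T cells and fibroblasts were 50.2% and 36.3% for Cd74, and fibroblasts were at 14.2% for H2-Ab1. Members thus lay below neutrophils and above T cells and fibroblasts for Cd74, and above all 3 for H2-Ab1. Tumour cells and leucocytes of library 1 lay above the members for both genes. Their thinned shares were 80.2% and 79.9% for Cd74, and 42.0% and 59.7% for H2-Ab1. The part of free RNA in the class II counts of these members was not tested.

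**Figure D4:**
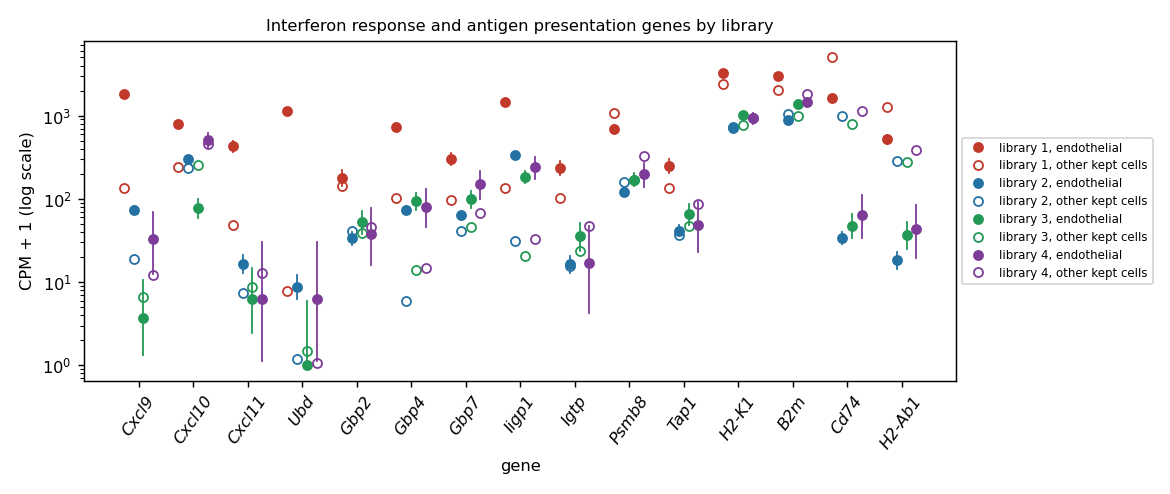
Levels of 15 interferon response and antigen presentation genes by library (CPM + 1, log scale), in endothelial cells (filled points, with exact Poisson 95% intervals) and in all other kept cells (open points). The filled point of library 1 is the highest filled point for each gene, and for Cd74, H2-Ab1 and Psmb8 the open point of library 1 lies above it.

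Transcripts of other cells also differed in library 1. The 4 haemoglobin genes summed to 1125 CPM in its members against 8.59, 5.34 and 37.0 in libraries 2 to 4, and the most abundant, Hbb-bs, was found in 5 of its cells. The 6 tumour genes summed to 565 CPM against 102, 22.7 and 5.29, with Krt18 the most abundant over all members, and library 1 held 3446 of the 3544 tumour cells. The 12 leucocyte genes summed to 506, 756, 622 and 682 CPM, with S100a9 the most abundant, and none of these lists had a defining marker at 0. Of 4 leucocyte genes tested, 1 (C1qa, a complement gene of macrophages) was at least 2-fold higher in library 1 than in libraries 2 and 3. Over all genes tested 3.41% were. C1qa was at 91.8 CPM in library 1, against 10.9, 2.67 and 21.2 CPM in libraries 2 to 4. Haemoglobin, keratin and C1qa transcripts moved with the interferon genes while the summed leucocyte list was lowest in library 1, and their part in the result was not tested.

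Among the 12 genes with the largest ratio between libraries, 10 were highest in library 1, Rgs5 in library 2 and Lyve1 in library 3. Library 1 also had the highest Klf2, a shear-induced transcription factor, at 2188 CPM against 367.5, 666 and 677 CPM in libraries 2 to 4, and Klf4 at 904 CPM against 205, 297.5 and 233 CPM. Both genes were at least 2-fold higher there than in libraries 2 and 3, as were 2 of 7 tested capillary genes (Gpihbp1 and Rgcc) and 2 of 9 tested tip cell genes (Pgf and Cxcr4), beside 3.41% of all genes tested. The shear, tone and coagulation list (with Klf2 and Klf4) summed to 4673, 1593, 3069 and 2359 CPM in members of libraries 1 to 4. In the other kept cells it summed to 1986, 1656, 1522 and 824 CPM, also highest in library 1. The capillary list as a whole summed to 7452 CPM in library 1 and 8623 CPM in library 2, with Cd36 at 181 against 441.5 CPM and Fabp4 at 4426 against 6504 CPM.

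Interferon-stimulated genes often hold a repeated GAAA element. GAAANNGAA was searched in the same promoter windows on both strands, and 8.56% of windows and 9.76% of genes held it. Of the 24 interferon genes 18 had a window, and 14 of these (77.8%) held it, as did 2 of 17 pan-endothelial genes. GGGATTTCC, which NF-kappaB can bind, was held by 0.323% of windows and 0.389% of genes, and by 2 of the 7 genes with a window among the 12 that differed most between libraries, namely Cxcl9 and Ubd. The stretches are shown for these genes and for Gbp7 and Igtp, 2 interferon-inducible GTPases, with the match in capitals. They lie at chr5:92328085-92328184 (minus strand), chr17:37193787-37193886 (plus), chr3:142530231-142530330 (plus) and chr11:58199451-58199550 (plus), and the matches begin at -42, -14, -52 and -34 from the start sites.
Cxcl9: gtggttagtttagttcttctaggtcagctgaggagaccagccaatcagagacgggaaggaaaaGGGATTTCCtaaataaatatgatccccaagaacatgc
Ubd: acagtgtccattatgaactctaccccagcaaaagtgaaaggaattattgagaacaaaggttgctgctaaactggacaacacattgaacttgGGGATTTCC
Gbp7: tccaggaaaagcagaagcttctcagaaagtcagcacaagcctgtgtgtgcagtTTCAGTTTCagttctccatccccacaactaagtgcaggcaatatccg
Igtp: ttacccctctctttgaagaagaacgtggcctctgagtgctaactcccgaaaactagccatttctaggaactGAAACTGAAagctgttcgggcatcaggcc
In Cxcl9 and Ubd the capitals mark GGGATTTCC, in Igtp GAAANNGAA, and in Gbp7 the same element on the opposite strand. Gbp7 was at 301, 62.6, 98.7 and 148 CPM in the endothelial cells of libraries 1 to 4. Binding at these letters was not measured.

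The endothelial cells of library 3 had more lymphatic transcripts than those of the other libraries, and more venous transcripts than those of libraries 1 and 2. Of all genes tested, 73 of 3499 (2.09%) were at least 2-fold higher there than in both library 1 and library 2, and so were 4 of 5 lymphatic genes (Prox1, Lyve1, Pdpn and Flt4) and 4 of 6 venous genes (Nr2f2, Ackr1, Selp and Vwf). In the other kept cells the lymphatic list was also highest in library 3, at 13.7, 259, 512 and 237 CPM in libraries 1 to 4, of which Pdpn, which fibroblasts also express, gave 12.8, 241, 496 and 235 CPM. Lyve1 was at 9.41, 73.5, 638 and 0 CPM in the endothelial cells of libraries 1 to 4, where 0 UMIs in library 4 allow up to 15.9 CPM. Selp cells were 57.1% of members in library 3, against 25.5%, 41.8% and 50% in libraries 1, 2 and 4. Summed over the 7 venous genes, libraries 1 to 4 were at 899, 1276, 2482 and 2486 CPM, so that library 4, with 10 members, was level with library 3. Ccl2, a chemokine for monocytes, was at 153, 226, 1075 and 68.8 CPM, and Procr, the receptor for activated protein C, at 101, 129, 600.4 and 169 CPM. In other kept cells the chemokine and scavenger list, which holds Ccl2, summed to 3097, 12798, 15237 and 10014 CPM in libraries 1 to 4. This sum too was highest in library 3. The 5 platelet genes summed to 25.9, 138, 776.5 and 280.3 CPM in libraries 1 to 4, with Pf4 the most abundant, at 16.5, 124, 707 and 243 CPM, and Gp9 at 0. Platelet transcripts moved with library 3, and their part in its other differences was not tested. Pf4 is also made by macrophages, and the other kept cells held it at 1482 CPM.

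Some members carried transcripts of mural cells, which wrap vessels. The 10 genes of the pericyte and smooth muscle list exceeded 1000 CPM in 33 members, of which 3 were in library 1 and 30 in library 2, and were at 0 in 114 members. Rgs5 and Notch3 belong to this list, so their high levels in the 33 cells were set by the choice and only describe it. In these cells Rgs5, a pericyte regulator of G protein signalling, was at 3538 CPM against 8.43 CPM in the other 229 members, and Notch3, the mural Notch receptor, at 318 against 1.48 CPM. Endothelial genes were present in the same cells. They detected a median of 24 of the 29 pan-endothelial genes against 23 in the other members, with Kdr at 345 against 403 CPM. The capillary genes Gpihbp1 (746 against 462.5 CPM) and Cd36 (1067 against 278 CPM) and the arterial connexin Gja4 (205 against 44.3 CPM) were higher, and Selp was lower (124 against 612 CPM).

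Cells chosen as pericytes and smooth muscle in library 2 (178 cells) had Rgs5 at 1091 CPM, Acta2 at 1248 CPM and Kdr at 0.801 CPM. The 33 members over 1000 CPM of the pericyte list had a median depth of 10541 UMIs, against 12839 in the other members. Of the 33, 1 was among the cells with the highest 5% of doublet scores in its library, as were 16 of all 262 members. Whether these barcodes each held an endothelial and a mural cell was not tested. Without them 229 members remained, and 224 genes in place of 225 were at least 4-fold higher than in all other kept cells.

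**Figure D5:**
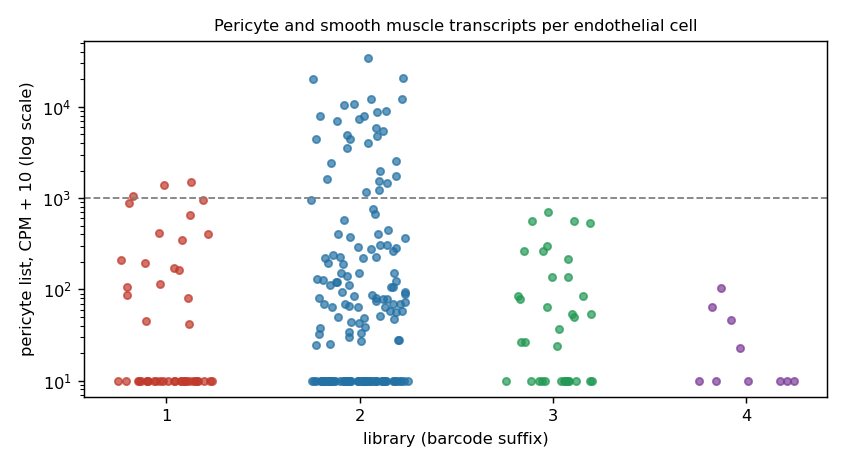
Summed level of the 10 pericyte and smooth muscle genes in each endothelial cell (1 point each) by library, in CPM + 10 on a log scale, with a dashed line at 1000 CPM. Above the line are 3 cells of library 1, 30 of library 2 and none of libraries 3 and 4.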

How the data were processed

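Raw UMI counts per gene and barcode were deposited by the authors as 1 matrix of 4 libraries (55450 Ensembl genes, all found in GENCODE vM21, GRCm38). CD45+-enriched tumour cells had been captured with the 10x Genomics 3′ chemistry. Cell Ranger is given as version 3.0.2 in the labels' protocol and the study's methods, 2.1.1 in the submitters' processing notes (with mm10) and 6.1.2 in the matrix header. Per the labels, 15603 cells were analysed, whereas the matrix held 33064 barcodes, of which the study's stated filter left 32133. The libraries held 108646352, 81369540, 69255999 and 96493208 UMIs.

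Members and gene lists were chosen with earlier results of these data known. Counts were summed over the members and scaled to CPM in Python 3.11.15 (numpy 2.4.6, scipy 1.17.1, pandas 2.3.3). Folds compared (CPM + 10) of members with that of all other kept cells, and were called at 4-fold and 50 CPM. As no label ties a library to a sample, groups were not compared, no test was run and n was 1 pooled sample. Intervals were exact Clopper-Pearson or Poisson, for counting error only, and 0 was read as up to 3 counts. Cells were thinned to 1000 UMIs (members to 5000), with shallower cells left out (1890 of all kept cells and 3 members at 1000 UMIs, 59 members at 5000). Doublets were kept. Scrublet (scanpy 1.11.5) scores served as an alternative that removed the highest 5% in each library (1561 cells).

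Named genes were those of 29 fixed lists (268 genes in all), the 25 with the highest lowest-library fold and the 12 with the highest ratio of the highest to the median library, over libraries with at least 20 members. The fold step was tested on simulated data. Other gene and cell limits, added CPM and each left-out library were tried. Levels of different genes were not compared, since 3′ counts depend on the transcript.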

Additional observations from a re-analysis of the deposited data

Results flagged for a closer look

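Outside the cells analysed, 9 of the 931 barcodes that failed the filter held Pecam1 and Cdh5 but no Ptprc, above the 3 counts that a count of 0 allows. By library there were 2, 6, 0 and 1. All 9 failed for mitochondrial transcripts over 15% (median 25.2%), none for having under 300 genes, and they had a median of 2118 UMIs. Kdr was detected in 5 of them, and their median was 10 of the 29 pan-endothelial genes.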

How the results depend on the processing

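The share of endothelial cells, 0.815% (262 cells), became 0.930% (299) with 1 Ptprc UMI allowed, 1.16% (373) with Cdh5 alone required, 0.675% (217) with Kdr also required, 0.380% (115) after thinning every cell to 1000 UMIs and 0.713% (229) without members over 1000 CPM of the pericyte list, an alternative chosen after seeing the data. Leaving out each library in turn gave 0.391% (without library 2) to 1.08% (without library 4). The count of 225 genes at least 4-fold higher became 63 with 50 CPM added, 341 from the mean of per-cell CPM, 502 at 2-fold and 139 when the fold was asked in every library with at least 20 members, and was 215 to 251 with a library left out. Of the 268 listed genes, 64 were 4-fold higher; this became 33 with 50 CPM added and was 63 to 72 with a library left out. The share of members with Kdr (82.8%) was 32.8% after thinning and 72.1% when at least 2 UMIs were asked, with Prox1 (9.54%) at 2.32% after thinning, and Cxcl9 (30.5%) at 10.4% and 22.5%. With a library left out these shares were 78.3 to 84.2%, 5.29 to 14.1% and 22.3 to 38.0%. The log2 folds of Kdr, Gpihbp1, Selp and Cxcl9 ranged over 2.91 to 5.22, 3.38 to 7.32, 3.47 to 6.52 and 1.29 to 3.10, and none of these turned.

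Limits: the libraries have no known treatment and each is 1 sample, so spread between replicates could not be measured. No paired analysis was possible because the matrix links no library to a sample or replicate number. Library 4, with 10 members and 3 UMIs allowing 15.9 CPM, cannot resolve genes of low level. Library 1 had the shallowest members, which lowers its shares of cells with a UMI. The sort for CD45+ cells, the dissociation and the number of endothelial cells in the tumour cannot be told apart in any share.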
